A study of Homo sapiens with 14 samples.

Results

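A set of 44 protein-coding genes was at most at a trace level in every library without doxycycline and present in every library of cells induced to overexpress CTNNB1. They were chosen by their values: a normalized read count of 10 or less in each of the 11 libraries without doxycycline (Dox) and of 40 or more in each of the 3 libraries with it. Genes of a few named families (WNT, FGF, DKK, collagens and others) were left out. The table holds 58051 genes. Because the choice rests on the levels with and without Dox, these levels are a description of the 44 genes and carry no test.

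The libraries are RNA sequencing of progenitor cells resembling those of the medial ganglionic eminence (MGE), a ventral forebrain region that gives rise to cortical interneurons. H9, an established line of human embryonic stem cells, was differentiated to them and collected at day 25. Every group had 2 µM SB431542 and 200 nM LDN193189, blockers of TGF-β and BMP signalling, on days 0 to 6, then 250 ng/mL SHH with 0.3 µM purmorphamine, an agonist of smoothened, on days 10 to 17. The groups were the inducible CTNNB1 overexpression line given 0.1 µg/mL Dox on days 17 to 25 (OE with Dox, n = 3), the same line without Dox (OE without Dox, n = 3), a CTNNB1 knockout (KO, n = 5) and the wild type (WT, n = 3). The labels do not say which form of CTNNB1 was overexpressed, what promoter drives it, whether a line is 1 clone, how the knockout was made, or whether replicates are separate differentiations, so a p-value measures only the spread between these libraries. No WT library received Dox, and the drug and the transgene cannot be told apart.

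CTNNB1 encodes beta-catenin, which joins cadherins at cell contacts and carries the WNT signal into the nucleus. Without a WNT signal it is broken down in the cytoplasm. With a signal it accumulates, enters the nucleus and binds the TCF/LEF transcription factors, which turn on target genes, among them feedback inhibitors of the pathway. In the embryo the pathway helps form the primitive streak, the mesoderm, the limb bud and the midbrain, and in the forebrain it favours dorsal over ventral fates.

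The targeted gene CTNNB1 had 26028, 23861 and 31290 normalized counts in OE with Dox, against 3084, 3318 and 3633 in OE without Dox. In KO it had 2483, 2779, 2385, 2178 and 2090, against 4393, 3803 and 3248 in WT, so its transcript remained in every KO library. Reads assigned to genes lay between 5233270 and 5639725 per library, 1 read was worth 0.866 to 0.947 normalized counts, and a count of 0 allows up to 3 reads, or 2.60 to 2.84 normalized counts. That limit covers counting error only. The MGE marker NKX2-1 was present in all 14 libraries, at 910.5, 274 and 296 in OE with Dox, 1845, 1378 and 2394 in OE without Dox, 2387, 2584, 2412, 3010.2 and 3475 in KO and 373, 621 and 664 in WT. LHX6, a marker of MGE-derived interneurons, was down to 9.23, 2.79 and 0.922 in OE with Dox, against 416, 120.3 and 153 in OE without Dox.

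Promoter windows of these genes are shown because TCF/LEF factors, the partners of beta-catenin, bind a short known motif. Windows of 300 bases, from 250 before the start site to 50 after it, were taken from RefSeq (GRCh38.p14), which matched 30 of the 44 genes with 44 windows. The 7-letter motif CTTTGAT or CTTTGTT, searched on both strands, was in 6 of them. These 6 are printed 5′ to 3′ in the direction of the gene, with the motif, or its reverse complement, in capitals. Counted from the start site, the motif begins at base -76 for MIXL1, -59 for ZAP70, -187 for LYPD6B, 44 for MYO3B, -135 for CTXN3 and -14 for RNASE1.
MIXL1: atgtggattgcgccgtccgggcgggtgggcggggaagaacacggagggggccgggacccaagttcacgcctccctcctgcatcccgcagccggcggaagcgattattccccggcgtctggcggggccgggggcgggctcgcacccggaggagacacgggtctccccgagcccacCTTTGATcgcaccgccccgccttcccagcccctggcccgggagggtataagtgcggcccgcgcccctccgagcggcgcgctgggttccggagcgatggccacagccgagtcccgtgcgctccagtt
ZAP70: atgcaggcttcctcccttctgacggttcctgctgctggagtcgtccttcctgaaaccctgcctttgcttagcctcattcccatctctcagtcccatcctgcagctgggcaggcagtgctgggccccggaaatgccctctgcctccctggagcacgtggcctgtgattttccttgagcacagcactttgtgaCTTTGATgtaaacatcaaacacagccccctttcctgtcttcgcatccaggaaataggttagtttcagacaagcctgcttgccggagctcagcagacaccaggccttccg
LYPD6B: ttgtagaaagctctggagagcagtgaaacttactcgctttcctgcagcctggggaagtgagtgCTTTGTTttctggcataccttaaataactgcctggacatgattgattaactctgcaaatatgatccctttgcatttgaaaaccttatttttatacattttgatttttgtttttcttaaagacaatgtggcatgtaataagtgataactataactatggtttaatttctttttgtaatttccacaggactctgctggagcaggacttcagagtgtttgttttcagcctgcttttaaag
MYO3B: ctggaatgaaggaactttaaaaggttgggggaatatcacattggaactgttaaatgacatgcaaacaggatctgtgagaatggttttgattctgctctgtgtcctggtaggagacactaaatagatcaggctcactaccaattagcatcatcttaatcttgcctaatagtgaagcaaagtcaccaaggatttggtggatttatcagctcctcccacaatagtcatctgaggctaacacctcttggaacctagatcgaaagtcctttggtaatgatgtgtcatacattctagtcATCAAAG
CTXN3: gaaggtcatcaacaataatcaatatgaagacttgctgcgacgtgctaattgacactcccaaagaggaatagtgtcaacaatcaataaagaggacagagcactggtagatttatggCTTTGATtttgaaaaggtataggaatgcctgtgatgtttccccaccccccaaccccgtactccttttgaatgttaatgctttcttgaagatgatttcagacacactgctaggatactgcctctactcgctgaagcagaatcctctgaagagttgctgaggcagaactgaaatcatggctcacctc
RNASE1: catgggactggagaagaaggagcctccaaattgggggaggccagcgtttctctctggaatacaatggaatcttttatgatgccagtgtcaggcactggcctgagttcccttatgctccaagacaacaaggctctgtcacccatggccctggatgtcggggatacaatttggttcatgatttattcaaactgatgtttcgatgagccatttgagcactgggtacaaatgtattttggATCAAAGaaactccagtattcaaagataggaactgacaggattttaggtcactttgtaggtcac
In the order printed, the windows are chr1:226223414-226223713 (+ strand), chr2:97713326-97713625 (+ strand), chr2:149077272-149077571 (+ strand), chr2:170177897-170178196 (+ strand), chr5:127648832-127649131 (+ strand), chr14:20802315-20802614 (- strand).

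The 7-letter motif was in 13.6% of the members' windows, against 9.5% of the 4995 windows of protein-coding genes at 10 or less in all 11 libraries without Dox and 6.2% of the 21507 windows of all protein-coding genes. The shorter 6-letter form CTTTGA or CTTTGT, which is contained in the longer one, was in 36.4%, 30.5% and 22.4% of the same 3 sets. Median GC content was 56.0%, 53.3% and 62.7%, and the CpG ratio (observed over expected from the base composition) had medians of 0.50, 0.29 and 0.74. The members' windows lay between those of quiet genes and of all genes in median GC and CpG content. The motif shares were not tested against each other: the 7-letter share rests on 6 windows, several genes have 2 or 3 windows, and motif content varies with base composition. A match is a run of letters, not a measured binding site, and windows with no match say nothing of TCF/LEF binding elsewhere.

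Few silent genes came on. Of 5894 protein-coding genes at 10 or less in all 11 libraries without Dox, 5613 (95.2%) had under 5 in at least 1 Dox library, and 125, 74 and 32 had a lowest Dox library from 5 to under 10, from 10 to under 20 and from 20 to under 40. Only 50 (0.848%) had 40 or more in all 3, and 44 of these remained once the named families and genes were left out. The other 6 were WNT16, FGF20, DKK4, DKK2, GRM7 and TWIST2. The same pair of thresholds, turned to the other groups, found 0 protein-coding genes on only in OE without Dox, 0 only in KO and 5 only in WT. In the reverse direction, 1 protein-coding gene, LHX6, was at 10 or less only in OE with Dox and at 40 or more elsewhere, 5 were so only in KO, 0 only in OE without Dox and 0 only in WT.

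The 44 genes lie on 17 chromosomes. By what their products are known to do, 10 are transcription factors, 9 enzymes, 7 receptors and signalling proteins, 7 secreted or matrix proteins, 3 proteins of T lymphocytes, 3 transporters, 2 muscle or motor proteins and 3 others. Their summed level was 7363, 8965 and 7955 normalized counts in OE with Dox, against 67.7, 106 and 82.5 in OE without Dox, 59.1, 72.7, 58.6, 57.5 and 68.0 in KO and 90.9, 90.3 and 107 in WT. By the choice of genes, the OE with Dox and OE without Dox libraries overlap in none of the 44 genes. They also do not overlap in 40.7% of all genes tested, and nothing is read from the members' count. With Dox the members held 0.141% to 0.173% of all reads in genes. Means with Dox ran from 55.5 (FRMPD1) to 891 (ISM1), with a median of 124. Over the 11 libraries without Dox a gene had between 0 and 60 reads in all, with a median of 18. Since these are bulk samples, a few cells with much transcript and many cells with little cannot be told apart, nor can fewer cells of a type from less RNA per cell.

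**Figure D1:**
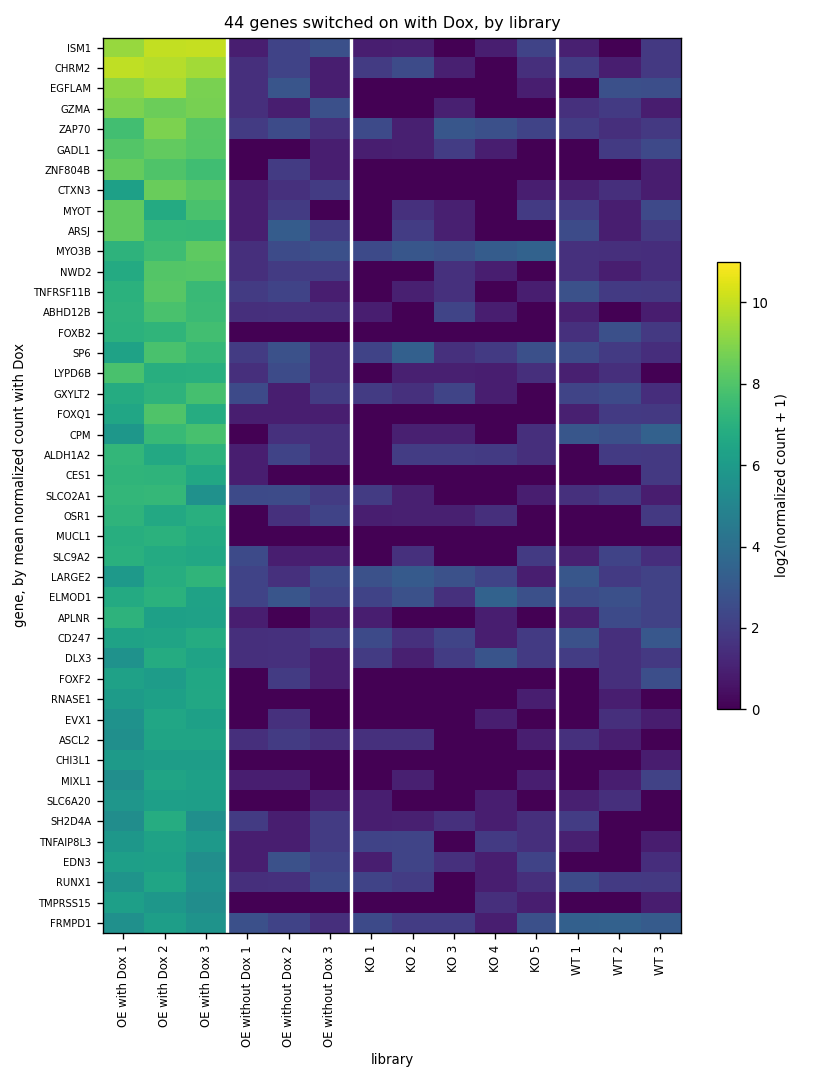
Levels of the 44 genes (rows, by mean with Dox) in the 14 libraries (columns: OE with Dox, OE without Dox, KO, WT) as log2 of the normalized count plus 1. The 3 OE with Dox columns are bright in every row, as the choice of genes requires, and FOXB2, MUCL1 and CHI3L1 are at 0 in all KO and OE without Dox libraries.

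Secreted and matrix proteins included the member with the highest normalized count, a value not corrected for gene length. ISM1 (chromosome 20, 13221274 to 13300651, plus strand, hg38), which encodes isthmin 1, a secreted protein first described at the midbrain-hindbrain boundary of the frog embryo, had 622, 1018 and 1033 normalized counts in OE with Dox, against 0.914, 3.70 and 5.44 in OE without Dox. The ratio of the means was 266. EGFLAM, or pikachurin, a matrix protein of the photoreceptor synapse, had 553, 753 and 444 in OE with Dox, against 1.83, 6.48 and 0.907 in OE without Dox. TNFRSF11B, or osteoprotegerin, a soluble decoy receptor for the bone-resorbing cytokine RANKL, had 128, 281 and 172 in OE with Dox, against 2.74, 3.70 and 0.907 in OE without Dox. The ratios of their means were 190.0 and 79.1, and ISM1 and TNFRSF11B were lowest in OE with Dox 1.

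MUCL1, a small mucin-like protein of breast epithelium, had 0 reads in all 11 libraries without Dox and 118, 128 and 103 in OE with Dox. It was the only member with no read there, and its mean with Dox was at least 42.4-fold higher than the limit of 3 reads per library in OE without Dox. RNASE1, the pancreatic-type ribonuclease, had 63.7, 75.3 and 94.9 in OE with Dox and 0 reads in OE without Dox, at least 28.4-fold. CHI3L1, a chitinase-like glycoprotein, was the steadiest member, with 62.8, 69.7 and 69.1 in OE with Dox and 0 reads in OE without Dox. EDN3, or endothelin 3, the ligand of the receptor EDNRB needed by neural crest-derived pigment cells and enteric neurons, was near the lower threshold at 72.0, 74.4 and 42.4 in OE with Dox, against 0.914, 5.55 and 3.63 in OE without Dox.

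Among the receptors, CHRM2 (chromosome 7, 136868652 to 137020255, plus strand), the muscarinic M2 acetylcholine receptor, had 997, 878 and 721 in OE with Dox, against 1.83, 3.70 and 0.907 in OE without Dox. Its ratio of means, 403, was the highest of the 32 members with more than 3 reads in OE without Dox, whose ratios ran from 15.1 to 403 with a median of 56.6. APLNR, the apelin receptor, known from mesoderm and vessel precursors, had 139, 75.3 and 78.3 in OE with Dox, against 0.914, 0 and 0.907 in OE without Dox. Both were highest in OE with Dox 1.

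The remaining receptors and signalling proteins had means with Dox between 55.5 and 156. LYPD6B, of the Ly-6 family of membrane-anchored proteins, had 229.9, 117 and 121 in OE with Dox, against 1.83, 4.63 and 1.81 in OE without Dox. ELMOD1, a GTPase-activating protein for ARL-family GTPases, had 104, 131 and 79.3 in OE with Dox, against 3.66, 6.48 and 3.63 in OE without Dox, and SH2D4A, an SH2-domain protein, had 41.6, 112 and 44.2 in OE with Dox, against 2.74, 0.925 and 2.72 in OE without Dox. LYPD6B resembled CHRM2 and APLNR in being highest in OE with Dox 1, while ELMOD1 and SH2D4A were highest in OE with Dox 2. TNFAIP8L3, which moves phosphoinositide lipids, had 56.3, 79.0 and 59.0 in OE with Dox, against 0.914, 0.925 and 2.72 in OE without Dox. FRMPD1, a scaffold protein with FERM and PDZ domains, had 45.2, 71.6 and 49.8 in OE with Dox, against 5.49, 3.70 and 1.81 in OE without Dox. With a ratio of means of 15.1, FRMPD1 had the lowest of the ratios given above.

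The transcription factors had means with Dox from 62.0 (RUNX1) to 161 (FOXB2). They include 3 forkhead factors. FOXB2 (chromosome 9, 77019655 to 77020953, plus strand) had 133, 145 and 206 in OE with Dox and 0 reads in all 3 OE without Dox libraries, at least 58.7-fold. FOXQ1 had 89.6, 249 and 112 in OE with Dox, against 0.914, 0.925 and 0.907 in OE without Dox, and FOXF2, a factor of mesenchyme around gut and craniofacial structures, had 76.6, 66.9 and 92.2 in OE with Dox, against 0, 2.78 and 0.907 in OE without Dox. FOXQ1 (chromosome 6, 1312098 to 1314758, plus strand) and FOXF2 (chromosome 6, 1389576 to 1395603, plus strand) are neighbours 74.8 kb apart, the only pair of members within 500 kb of each other.

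MIXL1 and EVX1 are homeobox genes known from the primitive streak. MIXL1 had 42.5, 83.6 and 74.7 in OE with Dox, against 0.914, 0.925 and 0 in OE without Dox. EVX1 had 48.0, 91.1 and 74.7 in OE with Dox, against 0, 1.85 and 0 in OE without Dox. SP6, a zinc finger factor of the apical ridge of the limb bud and of the tooth in mouse, had 80.3, 229.6 and 159 in OE with Dox, against 2.74, 5.55 and 1.81 in OE without Dox. DLX3, a homeobox factor of epidermis, placenta, tooth and bone, had 48.0, 108 and 81.1 in OE with Dox, against 1.83, 1.85 and 0.907 in OE without Dox. These 4 were lowest in OE with Dox 1 and highest in OE with Dox 2.

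OSR1, a zinc finger factor of intermediate mesoderm and kidney, had 141, 97.6 and 123 in OE with Dox, against 0, 1.85 and 3.63 in OE without Dox. ASCL2, a known WNT target of intestinal stem cells and a factor of the trophoblast, had 43.4, 84.6 and 85.7 in OE with Dox, against 1.83, 2.78 and 1.81 in OE without Dox. RUNX1, a factor of blood stem cells, had 50.8, 87.4 and 47.9 in OE with Dox, against 1.83, 1.85 and 4.53 in OE without Dox. OSR1 was highest in OE with Dox 1, where ASCL2 was lowest, so these factors did not follow each other from library to library.

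Enzymes and transporters made up 12 members. GADL1, a decarboxylase of acidic amino acids, had 267, 323 and 273 in OE with Dox and 1 read in all in OE without Dox. ALDH1A2, which makes retinoic acid, had 156, 99.4 and 135 in OE with Dox, against 0.914, 3.70 and 1.81 in OE without Dox. CES1, a carboxylesterase of liver, had 148, 139 and 95.9 in OE with Dox and 1 read in all in OE without Dox. These 3 varied by no more than 1.57-fold among the Dox libraries. CPM, a membrane carboxypeptidase, and SLCO2A1, a prostaglandin transporter, varied more. CPM had 56.3, 168 and 225 in OE with Dox, against 0, 1.85 and 1.81 in OE without Dox, and SLCO2A1 had 157, 161 and 46.1 in OE with Dox, against 4.57, 4.63 and 2.72 in OE without Dox. Their lowest libraries differed, OE with Dox 1 for CPM and OE with Dox 3 for SLCO2A1.

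The others of these 2 classes had means with Dox between 56.4 and 213. GXYLT2 and LARGE2 are glycosyltransferases, the first adding xylose to O-glucose on NOTCH receptors and the other extending the glycan of dystroglycan. GXYLT2 had 109, 138 and 218 in OE with Dox, against 4.57, 0.925 and 2.72 in OE without Dox, and LARGE2 had 60.9, 115 and 147 in OE with Dox, against 3.66, 1.85 and 4.53 in OE without Dox. Both were highest in OE with Dox 3. ARSJ, a sulfatase, had 319, 163 and 158 in OE with Dox, against 0.914, 8.33 and 2.72 in OE without Dox, and ABHD12B, of the hydrolase fold family, had 136, 229 and 179.7 in OE with Dox, against 1.83, 1.85 and 1.81 in OE without Dox. TMPRSS15, or enteropeptidase, the intestinal protease that activates trypsinogen, had 72.9, 54.8 and 41.5 in OE with Dox and 0 reads in OE without Dox, at least 20.5-fold. ARSJ and TMPRSS15 were highest in OE with Dox 1 and ABHD12B was lowest there. SLC9A2, a sodium-proton exchanger, had 125, 106 and 95.9 in OE with Dox, against 4.57, 0.925 and 0.907 in OE without Dox. SLC6A20, a transporter of proline, had 54.5, 73.4 and 71.0 in OE with Dox and 1 read in all in OE without Dox.

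The other 5 members were MYOT, MYO3B, CTXN3, ZNF804B and NWD2. MYOT, or myotilin, a protein of the muscle Z-disc, had 319, 104 and 226 in OE with Dox, against 0.914, 2.78 and 0 in OE without Dox. By GENCODE 44, 54.1% of its exon bases are shared with the antisense transcript PKD2L2-DT, and without a stated strand setting reads from the pair cannot be told apart. PKD2L2-DT itself averaged 1.23 in OE with Dox, against 1.22 in OE without Dox. CTXN3, a small membrane protein of the cortexin family, had 75.7, 362 and 277 in OE with Dox, against 0.914, 1.85 and 2.72 in OE without Dox. ZNF804B had 341, 253 and 198 and NWD2 103, 263 and 270.1 in OE with Dox, and neither passed 2.78 elsewhere. EVX1 and its antisense transcript EVX1-AS share 15.8% of the EVX1 exon bases, and EVX1-AS averaged 10.8 in OE with Dox and was at 0 in OE without Dox, KO and WT. CD247 shares 8.4% of its exon bases with POU2F1.

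Per kilobase of exon, a scale on which genes can be compared, the order changed. GZMA led at 469.9 ± 48.3 normalized counts per kb in OE with Dox, followed by ISM1 at 288 ± 75.4, FOXB2 at 124 ± 29.9, CTXN3 at 115 ± 71.3 and CHRM2 at 104 ± 16.6 (SD, n = 3). The 3 libraries of GZMA (416 to 509 per kb) did not overlap those of ISM1 (201 to 334), and those of ISM1 did not overlap those of FOXB2 (102 to 158). From FOXB2 down, neighbours in the order overlapped, except RUNX1, the lowest at 3.98 ± 1.41, which lay just under SLC6A20. The order depends on the length used: per kb of the longest transcript CTXN3 (147) and CHRM2 (145) stood above FOXB2 (124), while 9 of the 10 highest were the same genes.

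Some members are known from T lymphocytes, and most other genes of that cell type were at or near 0. GZMA (chromosome 5, 55102646 to 55110252, plus strand), or granzyme A, a serine protease of cytotoxic lymphocytes, had 456, 373 and 434 normalized counts in OE with Dox, against 1.83, 0.925 and 5.44 in OE without Dox. ZAP70, the kinase that relays the T cell receptor signal, had 203, 459 and 280.2 in OE with Dox, against 2.74, 4.63 and 1.81 in OE without Dox. CD247, the receptor's zeta chain, had 79.4, 83.6 and 108 in OE with Dox, against 1.83, 1.85 and 2.72 in OE without Dox. In all 3 the lowest Dox library was over 10 times the highest library of the other groups.

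Receptor constant segments, which are not classed as protein-coding and so are not members, passed the same thresholds. TRDC, the delta constant segment, had 764, 743 and 288 in OE with Dox, against 0, 0.925 and 0.907 in OE without Dox, and TRAC, the alpha segment, had 63.7, 80.9 and 43.3 in OE with Dox, against 0, 0.925 and 0.907 in OE without Dox. Several surface genes of T lymphocytes were near or at 0: CD3D had 0 reads in all 14 libraries, CD3E, CD3G and CD2 1 read each in the 14, and IL7R 0. LCK had 0, 0 and 0.922 in OE with Dox, and PTPRC, the pan-leukocyte gene CD45, had 3.69, 2.79 and 2.77 in OE with Dox, against 0.914, 3.70 and 10.9 in OE without Dox. Of 24 such genes, chosen after values were seen, 6 were at 0 in all 3 Dox libraries. CD4 and CD8A were the 2 that could be tested. CD8A was tested only through its Dox libraries (26.8, 12.1 and 14.7), being at most 7.40 in the others, and could only be called higher. CD5 and CD7 had more reads in OE with Dox than in OE without Dox but failed the filter. CD4 rose to 45.2, 95.7 and 46.1 in OE with Dox, against 21.9, 25.0 and 7.25 in OE without Dox (log2 fold 1.81, SE 0.40, limma adjusted p = 0.0023), and CD8A had an adjusted p of 0.057. The summed level of the 24 genes was 92.2 to 145.9 in OE with Dox, against 35.4 to 51.8 in OE without Dox and 25.5 to 51.8 over the 11 libraries without Dox.

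**Figure D2:**
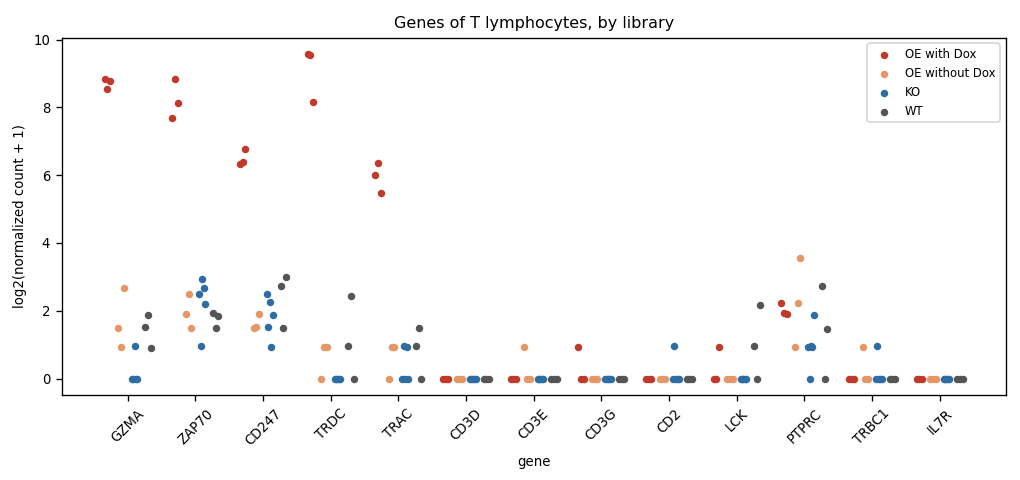
Log2 of the normalized count plus 1 for 13 genes of T lymphocytes, each point a library, coloured by group (OE with Dox, OE without Dox, KO, WT from left to right). GZMA, ZAP70, CD247, TRDC and TRAC are high with Dox, while CD3D, CD3E, CD3G, CD2, LCK, TRBC1 and IL7R lie at 0 or 1 read in the Dox libraries. CD4, CD8A, CD5 and CD7, which had more reads in OE with Dox than in OE without Dox, are among the genes not shown.

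The 44 genes varied among the 3 Dox libraries. The highest library was 1.76 times the lowest at the median, with a range from 1.11 (CHI3L1) to 4.79 (CTXN3), and 14 members varied by at least 2-fold. Over the 9218 protein-coding genes whose mean with Dox lies in the members' range the median was 1.30. The members lowest in OE with Dox 1 were 25 (56.8%, against 36.1% of those genes), and the members highest in OE with Dox 2 were 21 (47.7%, against 28.4%). CTXN3 is the extreme case in one direction (75.7, 362 and 277) and MYOT in the other (319, 104 and 226). CTNNB1 itself did not follow this order, being lowest in OE with Dox 2.

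**Figure D3:**
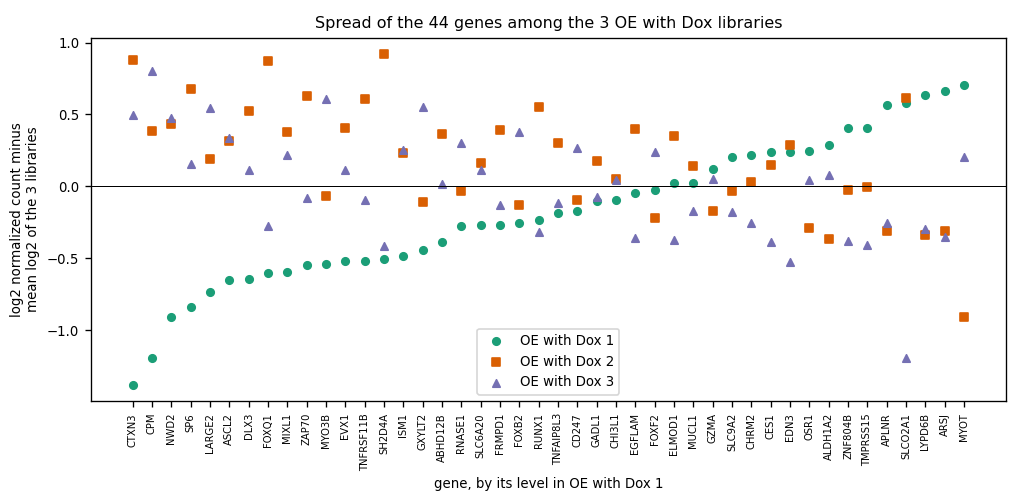
Deviation of each gene's log2 normalized count in each of the 3 OE with Dox libraries from the mean over the 3, with genes ordered by OE with Dox 1. OE with Dox 1 is the lowest of the 3 for 25 genes, with CTXN3 and CPM at the left end, and the highest for 12, with MYOT at the right end.

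The same thresholds were also applied with 1 library left out. The genes that pass in that library are always the 44, so the shares below restate the list sizes and carry no test. The thresholds applied without OE with Dox 1 chose 55 genes, of which 80.0% also had 40 or more in OE with Dox 1. Without OE with Dox 2 or OE with Dox 3 they chose 50 genes each, of which 88.0% passed in the library left out. Leaving out any 1 library without Dox gave 44 to 49 genes, of which 89.8% to 100% passed in it. Just inside the upper limit of 10 were FRMPD1 (9.83), MYO3B (9.84) and ELMOD1 (9.88), and just outside it SMOC2 (10.2), TTC29 (11.4) and JPH1 (11.9). Just inside the lower limit of 40 were TMPRSS15 (41.5), SH2D4A (41.6) and EDN3 (42.4), and just outside CDKN2B (38.8), CSGALNACT1 (38.8) and DMRT2 (38.7).

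The libraries without Dox were compared next, since the choice of genes does not fix which of them is higher. In KO, 6 members fell and 1 rose against WT (limma on log2 of the normalized count plus 1, 2-sided, Benjamini-Hochberg adjusted p under 0.05 over 17102 genes). The 6 are 13.6% of the members and the 1 is 2.3%, beside 7.15% of all genes called lower and 6.64% called higher. Nothing is read from that difference: all 44 genes entered the test through their Dox libraries and none through the others, the choice of genes holds their levels here to 10 or less, and all of these values are a few reads per library.

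FOXB2 had 0 reads in all 5 KO libraries, against 1.89, 5.36 and 2.60 normalized counts in WT (adjusted p = 0.0016 in limma). Read against the limit of 3 reads per library, that is at least 1.19-fold lower. CPM fell to 0, 0.944, 0.945, 0 and 1.79 in KO, against 6.63, 5.36 and 9.53 in WT, with a log2 fold of -2.32 and an SE of 0.52 (limma adjusted p = 0.0044), and the groups did not overlap. MYO3B, a class III myosin, rose to 4.62, 6.61, 5.67, 8.09 and 9.84 in KO, against 1.89, 1.79 and 1.73 in WT, with a log2 fold of 1.47 and an SE of 0.35 (limma adjusted p = 0.0076), again without overlap. MYO3B thus was higher in KO than in WT, and far higher still in OE with Dox (139, 192 and 308). FOXB2, CPM and MYO3B were called in every alternative that tested them.

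The other calls rest on fewer reads. FOXQ1 had 0 reads in all 5 KO libraries, against 0.947, 2.68 and 2.60 in WT (adjusted p = 0.017 in limma), where both group means lie under the limit of 3 reads per library. FRMPD1 had 4.62, 2.83, 2.83, 0.898 and 5.37 in KO, against 9.47, 9.83 and 7.80 in WT, with a log2 fold of -1.33 and an SE of 0.40 (limma adjusted p = 0.033). TNFRSF11B had 0, 0.944, 1.89, 0 and 0.895 in KO, against 5.68, 2.68 and 2.60 in WT, with a log2 fold of -1.47 and an SE of 0.46 (limma adjusted p = 0.038). APLNR had 2 reads over the 5 KO libraries, at 0.924, 0, 0, 0.898 and 0, against 0.947, 4.47 and 3.46 in WT (adjusted p = 0.044 in limma). FOXQ1 lost its call without WT 2 (adjusted p = 0.079) or WT 3 (0.087). FRMPD1 lost it without KO 2 (0.051), KO 3 (0.054), KO 4 (0.071), WT 1 (0.089), WT 2 (0.10) or WT 3 (0.073). TNFRSF11B lost it without KO 1 or KO 4 (0.082 each), WT 1 (0.16), WT 2 (0.063) or WT 3 (0.066), and APLNR without KO 2 (0.076), KO 3 (0.079), KO 5 (0.081), WT 2 (0.20) or WT 3 (0.17). TNFRSF11B was also not called by DESeq2 (adjusted p = 0.061) or edgeR (adjusted p = 0.079).

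Over the 44 genes the mean in KO was below that in WT for 28 and above it for 15, and MUCL1 was at 0 in both. The median fitted log2 fold was -0.46, against -0.02 over all genes tested. With the 7 members that had 0 reads in KO set to the limit of 3 reads per library, and given no change where WT lies under it too, the members' median was -0.07. The summed level was 57.5 to 72.7 in KO, against 90.3 to 107 in WT.

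The uninduced line differed from WT in 2 members, both lower: FOXB2, with 0 reads in OE without Dox, against 1.89, 5.36 and 2.60 in WT (at least 1.20-fold lower, adjusted p = 0.011 in limma), and CPM, at 0, 1.85 and 1.81 in OE without Dox, against 6.63, 5.36 and 9.53 in WT (log2 fold -2.0, SE 0.58, adjusted p = 0.049 in limma). The members' 2 lower (4.5%) and 0 higher stand beside 2.32% of all genes called lower and 3.43% called higher, with the same limits. At an unadjusted limma p under 0.05 there were 5 members, with EDN3 higher (log2 fold 1.47) and FOXB2, CPM, APLNR and FRMPD1 lower. The share of all genes at that level was not counted, so nothing is read from the 5. With edgeR or DESeq2, 1 member was called. FOXB2 lost its call without WT 2 (adjusted p = 0.057). CPM lost it without any 1 of WT 1 to 3, OE without Dox 1 to 3 or KO 2 to 4, at an adjusted p between 0.052 and 0.24. This comparison shares its WT libraries with KO against WT.

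**Figure D4:**
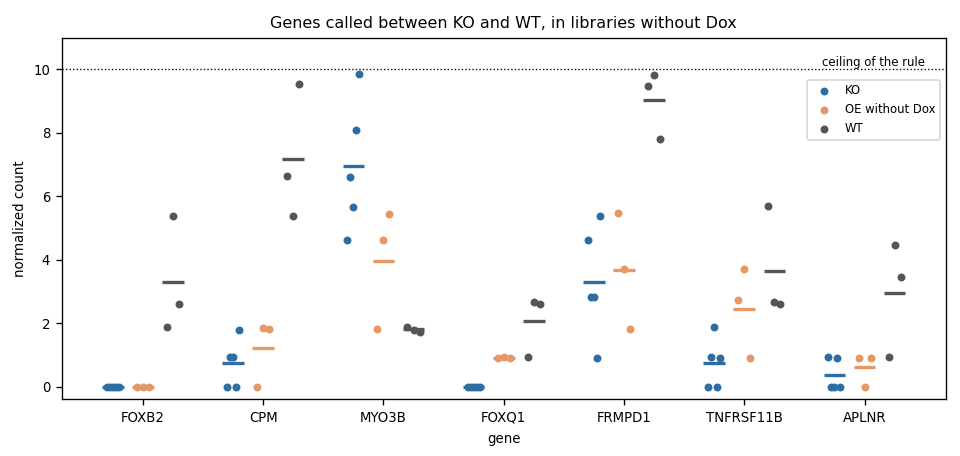
Normalized counts of the 7 genes called between KO and WT, in KO, OE without Dox and WT libraries (points) with group means (bars); the dotted line is the upper limit of 10 used to choose the genes. KO points lie below every WT point for FOXB2, CPM, FOXQ1, FRMPD1 and TNFRSF11B, just below for APLNR, and above for MYO3B.

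Protein-coding genes near the 44 were then examined, since the choice of members does not use them. Within 500 kb of a member lay 271 tested protein-coding genes other than the members. With Dox 71 of them (26.2%) rose and 23 (8.5%) fell against OE without Dox, beside 14.9% and 13.6% of the 13560 protein-coding genes tested, and 12.8% and 12.9% of all 17102 genes. Their median log2 fold was 0.08, against 0.03 over the protein-coding genes tested. Genes of 1 neighbourhood share their surroundings and are not independent of each other.

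The largest such rise was beside MYO3B. SP5, a zinc finger factor and direct WNT target 60.2 kb away, rose to 2561 ± 519.8 in OE with Dox, against 27.4 ± 6.88 in OE without Dox (SD, n = 3 each; log2 fold 6.50, SE 0.29, limma adjusted p = 3.9e-11). GAD1, the GABA-synthesizing enzyme 158.0 kb from MYO3B, rose by a log2 fold of 2.45 (SE 0.29, limma adjusted p = 1e-05), and ERICH2 by 3.33 (SE 0.54, limma adjusted p = 0.00012). ERICH2 was at most 8.04 in the libraries without Dox. It was tested only through its Dox libraries and could only be called higher, so its rise is a description. The non-coding LINC01124, which passed the same thresholds as the members, lies near MYO3B as well, at 462, 439.6 and 487 in OE with Dox. Beside FOXQ1 and FOXF2, another forkhead gene, FOXC1, rose by 3.0 on the log2 scale (SE 0.60, limma adjusted p = 0.00087). PYGL, a glycogen phosphorylase that overlaps ABHD12B, rose by 3.79 (SE 0.37, limma adjusted p = 8.6e-07), and ESM1, 80.0 kb from GZMA, by 4.21 (SE 0.65, limma adjusted p = 7.1e-05). ESM1 did not reach 10 in 3 libraries without Dox, so it too entered the test through its Dox libraries, where it is high. PYGL and ABHD12B overlap in their spans but share no exon bases in the annotation used.

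Lists of genes that mark other tissues place the members' known sites of expression beside other genes of those sites. These lists hold no member in the counts that follow. They do hold TWIST2 (mesenchyme) and FGF20 and DKK4 (WNT feedback), which passed the same thresholds and were left out by name only. The rise of these genes with Dox was fixed by the thresholds and is no separate result. In the primitive streak list, which holds MIXL1 and EVX1, 3 of 7 tested genes rose with Dox and 1 fell: TBXT had 17.5, 58.6 and 19.4 in OE with Dox, against 0.914, 0 and 0 in OE without Dox, and CDX1 had 30.5, 59.5 and 22.1 in OE with Dox, against 0.914, 0 and 0 in OE without Dox. CDX2 rose too and DLL3, a NOTCH ligand, fell. In this and the other lists, a gene under 10 in every library without Dox was tested only if all 3 Dox libraries reached 10. Such a gene could only be called higher, so the share of rises among tested genes is partly set by this filter. The list's summed level was 236.0 to 776 in OE with Dox, against 478 to 645 in OE without Dox, and CDX4 was at 0 in all 3 Dox libraries. EOMES, another gene of that list, had 499, 21.4 and 23.0 in OE with Dox, against 38.4, 41.6 and 58.9 in OE without Dox, so that OE with Dox 1 stood alone. In the limb list, which holds SP6, 5 of 9 rose and 1 fell. MSX1, a homeobox factor, rose to 557 ± 142 in OE with Dox, against 44.8 ± 14.9 in OE without Dox (limma adjusted p = 3e-07), and EN1, TBX4 and FGF8 rose as well. That list summed to 1984 to 3054 in OE with Dox, against 228 to 476 in OE without Dox. In the epithelium list, which holds DLX3, 5 of 9 rose and 0 fell, among them KRT5, GRHL3, EPCAM and KRT18, with KRT14 at 0 in all 3 Dox libraries. The sum was 300.1 to 674 in OE with Dox, against 122.5 to 229.5 in OE without Dox. In the endothelium and blood list, which holds RUNX1, 2 of 3 rose, CD34 and KDR, PECAM1 had at most 1 read in any Dox library and HBG1 0, and the sum was 130.0 to 169 in OE with Dox, against 26.5 to 64.8 in OE without Dox.

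Mesenchyme genes rose in 8 of 13 and fell in 0, with TWIST2, PRRX1, FOXC1 and POSTN first by adjusted p, and their sum was 1780 to 5917 in OE with Dox, against 297 to 1537 in OE without Dox. Midbrain and isthmus genes had 6 of 12 higher and 2 lower, led by FGF17. EN1, FGF8 and LMX1B are in both this list and the limb list, so the calls of these lists are partly the same genes. WNT feedback targets had 15 of 17 higher and 0 lower, while MGE genes had 0 of 14 higher and 13 lower and neuron genes 1 of 14 higher and 10 lower. Cartilage and bone (2 higher and 2 lower of 6), neural crest (2 and 2 of 11), somite and muscle (2 and 1 of 6), endoderm (2 and 1 of 7), HOX (2 and 0 of 5) and chemokine genes (1 and 1 of 6) had fewer calls, but also fewer genes tested. Of all genes tested, 12.8% were called higher and 12.9% lower. The median log2 fold with Dox of the tested genes was 2.78 for mesenchyme, 4.22 for WNT feedback targets, -2.87 for MGE genes and -1.49 for neuron genes, beside 0.02 for all genes tested. These folds are against OE without Dox and not against WT. The MGE list summed to 2324 to 3109 in OE with Dox, against 7746 to 11896 in OE without Dox. Over the 11 libraries without Dox the MGE sum was 3582 to 12967. The neuron list summed to 7703 to 8180.5 in OE with Dox, against 19056 to 20892 in OE without Dox. Over the 11 libraries the neuron sum was 11200.5 to 22769. SOX10, which marks neural crest, was at 0 in all 3 Dox libraries. The part of other cell types in the members' levels was not tested.

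**Figure D5:**
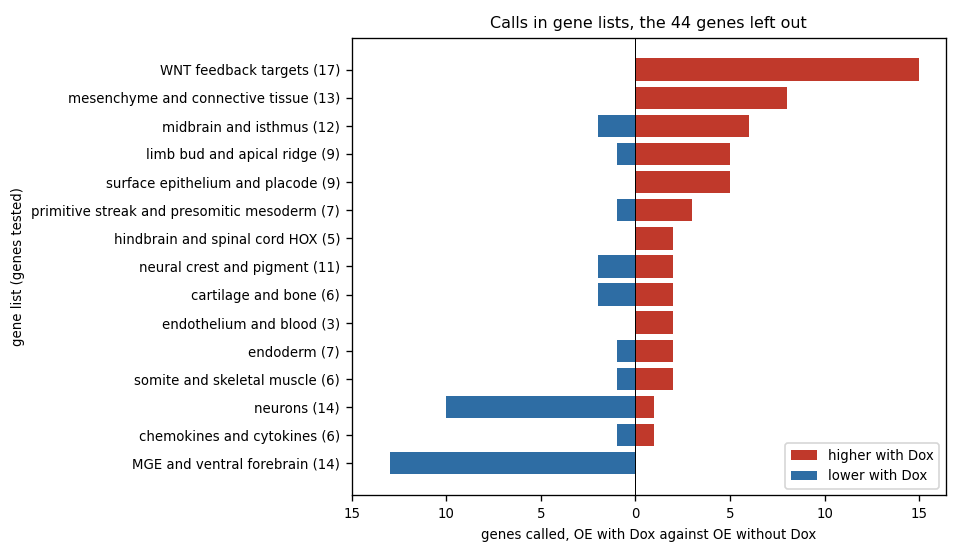
Number of genes called higher (right) and lower (left) in OE with Dox against OE without Dox for 15 gene lists, with the number tested in brackets and the 44 genes left out. WNT feedback targets, mesenchyme, midbrain, limb and epithelium genes lie mainly to the right, and MGE and neuron genes mainly to the left. EN1, FGF8 and LMX1B are in both the midbrain and the limb list.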

How the data were processed

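RNA sequencing of 14 libraries was read from 1 table of normalized counts. Per the submitters' processing notes the tools were TopHat2 2.1.1, HTSeq 0.9.1, R 3.4.0 and DESeq2 and the build hg38; the annotation and the strand setting are not given in the sources used here. The deposited normalized signal is read counts divided by 1 size factor per library: 100.0% of values were whole reads at a tolerance of 0.01, and recovered reads were used for edgeR and DESeq2. GENCODE 44 named 56948 of 58051 genes and gave types, coordinates and exon lengths.

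Genes with 10 or more in 3 or more libraries (17102) were tested with limma 3.58.1 in R 4.3.3 on log2(normalized count + 1), in 1 model of 4 groups with an intensity trend and a robust empirical Bayes step, at a Benjamini-Hochberg adjusted p of 0.05; folds on this scale understate changes of low genes. Tables were handled in pandas 2.3.3 (Python 3.11.15) and figures drawn in matplotlib 3.10.9.

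Same-numbered OE with Dox and OE without Dox libraries deviated together (correlations 0.22, 0.25 and 0.40), as did OE without Dox and WT (0.22, 0.18 and 0.28). Differently numbered libraries were not compared in this way. The main model did not pair libraries, so its SEs and adjusted p-values ignore any pairing. A replicate block was run only as an alternative, and with it 4921 genes were called with Dox, against 4393 in the main model. Alternatives were other thresholds, pseudocounts, filters, scalings and tools, the replicate block, and leaving out each library. The 44 genes and the gene lists were chosen with earlier results of these data known. Named genes were the 30 members of highest mean with Dox, those at 0 elsewhere, called without Dox, nearest the thresholds, in a list, or near or related to another member, and up to 4 called genes per list; PTPRC, TRDC, TRAC, the other T lymphocyte genes, LINC01124 and the neighbours named were chosen after their values were seen.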

Additional observations from a re-analysis of the deposited data

Results flagged for a closer look

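Among the 16 items tested in the 5 KO libraries (members with a range of at least 4 reads there, CTNNB1 and the members' sum), 2 had a library far from the other 4, and chance flags about 1 in 20. ISM1 had 3.58 normalized counts in KO 5, against 0 to 0.94 in the other KO libraries. ABHD12B had 3.78 in KO 3, against 0 to 0.92 in the others. Both are about 4 reads.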

How the results depend on the processing

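The 44 genes depend on their thresholds: an upper limit of 5 gave 27 and of 20 gave 69, and a lower limit of 20 gave 74 and of 100 gave 17. TMM and upper-quartile scaling gave 44 and 43, and leaving out 1 library 44 to 55. Members called in KO against WT were 7. Under edgeR and DESeq2 they were 8 each, without TNFRSF11B (adjusted p = 0.079 in edgeR and 0.061 in DESeq2). They were 3 at a filter of 50, 4 at a pseudocount of 5, 3 with the 2 compared groups alone and 3 to 8 leaving out 1 library. With the replicate block they were 4, but same-numbered KO and WT libraries did not all deviate together (correlations 0.24, -0.29 and 0.13), so they share only a number. Members called in OE without Dox against WT were 2, with 1 under DESeq2, edgeR, a filter of 50 or a pseudocount of 0.5, 0 at a pseudocount of 5 or with the 2 compared groups alone, and 0 to 2 leaving out 1 library; the replicate block kept 2. Over all genes that comparison called 982, and 419 to 1077 leaving out 1 library (419 without OE without Dox 1, 543 without OE without Dox 3, 456 without WT 3). Calls with Dox (4393) and in KO against WT (2359) stayed within 1.5 times under each alternative run. Without an OE with Dox library the members fail the filter and were not tested. No member's call changed direction. Levels under 3 reads per library cannot be ordered at this depth.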
